A study of Mus musculus with 6 samples.

Results

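The potassium channel genes of thymic tuft-like cells were taken as the protein-coding genes whose mouse symbols start with Kcn, of which 94 were found among the 52636 gene rows of a bulk RNAseq count table. They were compared in medullary thymic epithelial cells (mTEC) sorted from thymi of C57BL/6 mice at 6 weeks of age, with 3 libraries per population. Both sorts carried UEA1 reactivity, were low for MHCII and lacked Sca1 and CD63 at the surface. The labels give both as CD80-, while the study describes tuft-like mTEC as low for CD80. CD117 and CD66a were present on the tuft-like mTEC and absent from the non-tuft-like mTEC. Neither sort carried a genetic modification or a treatment that the labels name. The number of mice behind each library is not named in the sources used here, so the p-values measure the spread between these libraries, which may be technical.

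Potassium channels let potassium leave the cell along its gradient and thereby set the resting potential and end electrical signals. A pore is built from subunits that each carry a selectivity filter. The gene families differ in what opens them, such as voltage (Shaker-type, EAG-type and KCNQ channels), calcium or G proteins. Tandem-pore (K2P) channels carry a background leak of potassium. Auxiliary subunits without a pore tune potassium channels. Tuft cells share with taste cells a cascade in which receptors act through a G protein and phospholipase C on the sodium-permeable channel Trpm5, so that outward potassium currents oppose the resulting depolarisation.

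The coding bases around the selectivity filter are given for the called channels Kcnj5 and Kcnk16 and for 4 of the uncalled channels with the smallest FDR, in order to show the part that makes each of them a potassium channel. They were read from GENCODE M21 transcripts on GRCm38 (mm10), 5′ to 3′ on the coding strand, with the 5 codons that match the filter signature in capitals. For K2P channels, which carry 2 such stretches, the first is shown. Where a stretch lies in 2 exons, the positions span the intron between them.
Kcnq1 (chromosome 7, 143184540 to 143191461, plus strand, exons 6 and 7 of 16): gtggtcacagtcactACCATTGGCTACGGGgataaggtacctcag
Kcnj5 (chromosome 9, 32322544 to 32322588, minus strand, exon 3 of 4): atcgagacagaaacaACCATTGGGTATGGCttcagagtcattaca
Kcnj15 (chromosome 16, 95295965 to 95296009, plus strand, exon 5 of 5): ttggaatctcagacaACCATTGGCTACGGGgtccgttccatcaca
Kcnk16 (chromosome 14, 20264304 to 20265187, minus strand, exons 2 and 3 of 5): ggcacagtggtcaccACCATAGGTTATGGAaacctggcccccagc
Kcnk6 (chromosome 7, 29225845 to 29232183, minus strand, exons 1 and 2 of 3): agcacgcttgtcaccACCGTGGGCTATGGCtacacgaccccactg
Kcnh8 (chromosome 17, 52877976 to 52878020, plus strand, exon 8 of 16): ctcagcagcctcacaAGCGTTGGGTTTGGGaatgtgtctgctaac
Of the 45 bases Kcnj5 shared 29 with Kcnj15 and Kcnk16 shared 29 with Kcnk6. Between Kcnj5 and Kcnk16, which moved in opposite directions, 20 bases were shared, of which 12 lay among the 15 capital bases.

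The reads assigned to genes numbered 20097617 to 48369825 in a library. Levels are given as TMM-normalized CPM (reads on the gene relative to all reads on genes, on a fixed scale), listed in the order of replicates 1, 2 and 3 of a population, and log2 fold changes as tuft-like over non-tuft-like. A gene was called where edgeR's quasi-likelihood test, fitted over all 32496 genes that passed the filter on low counts, gave a false discovery rate (FDR) under 0.05. All 11 tuft cell markers listed for the identity of the sort were called higher in tuft-like mTEC (100%, against 1.16% of all tested genes). Their summed level was 8602 to 14727 CPM in tuft-like and 543 to 652 CPM in non-tuft-like libraries. Reads that HTSeq assigned to no annotated feature made up 19.7% of all reads in tuft-like replicate 3 and 61.6% in tuft-like replicate 1, so low counts were also compared with those of 1134 olfactory receptor genes as a measure of background. Of 94 potassium channel genes, 19 exceeded the 99th percentile of these genes, in reads per kb of exon, in all 3 tuft-like libraries and 14 in all 3 non-tuft-like libraries, while 50 did so in none of the 6 libraries. The sum of all potassium channel genes did not separate the populations, with 1427, 1667 and 1441 CPM in non-tuft-like and 1346, 1533 and 1694 CPM in tuft-like libraries.

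Kcnj5, an inward rectifier opened by G proteins, rose in tuft-like mTEC by 2.54 on the log2 scale. Kcnk16, a K2P leak channel known from pancreatic islets, fell by 1.58. The calls lay close to the threshold, and no potassium channel gene was called once tuft-like replicate 2 or tuft-like replicate 3 was left out. Of the 94 genes 89 were tested, and 2 were called higher and 1 lower, which is 3.37% of those tested, while 2.11% of all tested genes were called (1.16% higher and 0.951% lower). With RLE factors in place of TMM the calls were 4 higher and 1 lower. limma voom called 4 higher, among them Kcnj5, Kcnq1 and Kcnh8, and 0 lower. The share of tested potassium channel genes called was 5.62% with RLE factors, where 2.41% of all tested genes were called, and 14.6% with DESeq2, where 5.86% of all were called. The DESeq2 shares count all genes entered, although 27 potassium channel genes and 13917 genes in all got no adjusted p and could not be called. The edgeR share was 0% without tuft-like replicate 2 or without tuft-like replicate 3, against 1.05% and 2.45% of all tested genes. The difference between these shares was not tested. The median log2 fold change was 0.01 over the 89 genes and 0.02 over all tested genes. No overlap between the populations was seen for 22 of the 89 genes (24.7%), of which 13 were higher and 9 lower, against 16.0% of all tested genes (7.18% higher and 8.85% lower). An unadjusted p under 0.05 was given to 17 of the 89 (19.1%) and to 8.97% of all tested genes. The remaining 5 members, Kcna3, Kcne4, Kcng3, Kcnk12 and Kcnv1, did not pass the filter on low counts, and their highest count in any library was 126 (Kcna3).

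**Figure D1:**
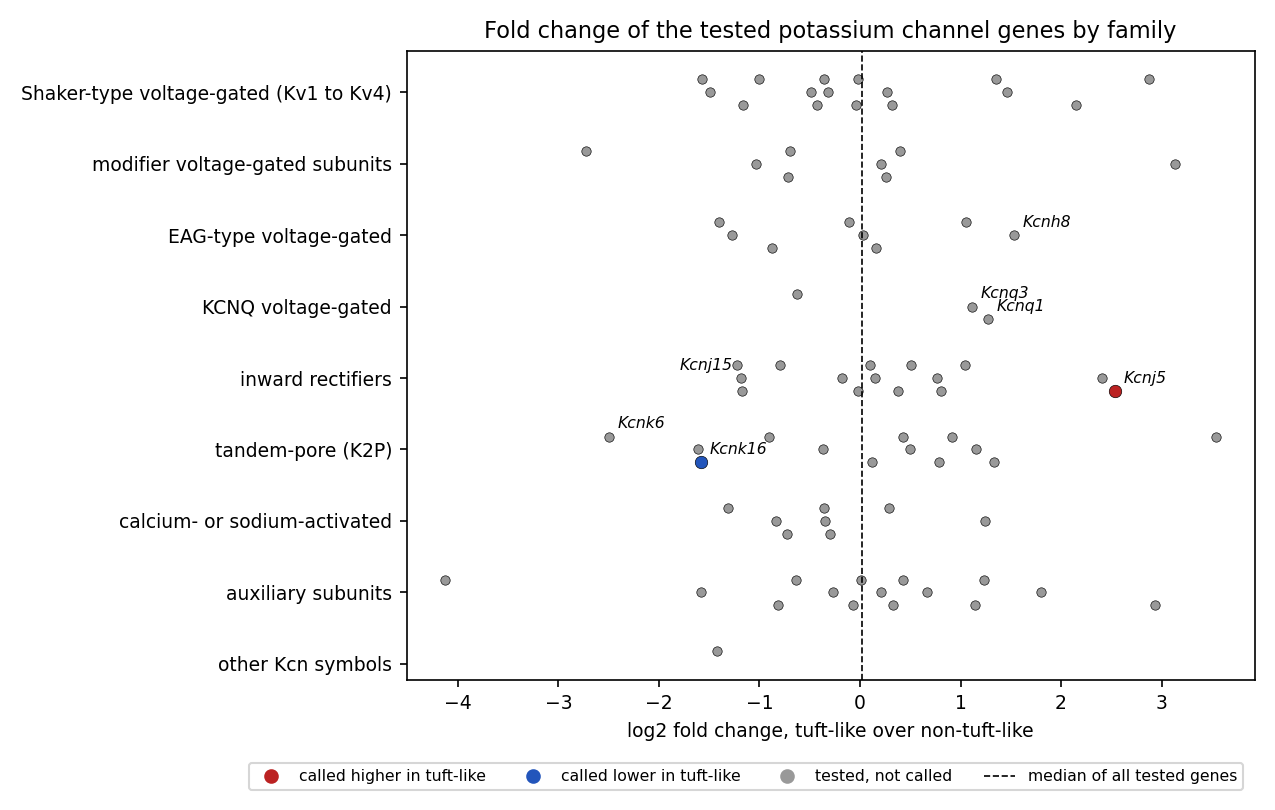
Each point is 1 of 87 tested potassium channel genes, placed by its log2 fold change of tuft-like over non-tuft-like mTEC (x axis) and its family (y axis), with the spread within a row added for legibility. Kcnj5 (2.54) is called higher, Kcnk16 (-1.58) is called lower, and the dashed line at 0.02 is the median of all tested genes.

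KCNQ channels are voltage-gated channels that open near the resting potential and include those of the neuronal M-current. Kcnq1 (chromosome 7, 143106362 to 143427042), which carries potassium secretion in several epithelia, was the next gene by p-value among those not called. It had 63.3, 83.2 and 63.9 CPM in non-tuft-like and 126, 189 and 194 CPM in tuft-like libraries. The populations were separate, and the FDR lay just above the threshold (log2 fold change 1.28, standard error 0.29, edgeR FDR 0.0534). Kcnq1 was the gene with the second highest mean level per exon length in tuft-like mTEC, and 121 bp of its 4093 exonic bp overlap the antisense gene Kcnq1ot1. How reads in these 121 bp were assigned is not known, since the strand setting is not named. Of 15 alternative settings 9 called Kcnq1, and the FDR ranged from 0.000145 to 0.272. Kcnq3 (chromosome 15, 65986387 to 66286642), a subunit of the M-current, had 31.2, 26.3 and 22.7 CPM in non-tuft-like and 53.8, 63.3 and 56.6 CPM in tuft-like libraries, again without overlap but not called (log2 fold change 1.11, standard error 0.30, edgeR FDR 0.109). Kcnq5 had overlapping libraries and a log2 fold change of -0.63 (edgeR FDR 1).

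The Kcne genes, auxiliary subunits of which some pair with Kcnq1, were looked up after their values were seen. Kcne1 had 1.33, 3.07 and 5.28 CPM in non-tuft-like and 0.496, 0.0292 and 0.0276 CPM in tuft-like libraries (edgeR FDR 0.51). At most 12 reads were counted on it in a tuft-like library. Kcne3 stood at 2.56, 0 and 3.24 CPM and 5.08, 5.64 and 2.07 CPM in the same order, and Kcne2 at no more than 2.83 CPM in any library. Neither Kcne1, Kcne2 nor Kcne3 exceeded the olfactory receptor background in all 3 libraries of a population. Kcne1l exceeded it in all 3 tuft-like libraries and in 0 non-tuft-like libraries. Its level was 0 to 2.80 CPM in non-tuft-like and 5.08 to 13.6 CPM in tuft-like libraries. These did not overlap, but Kcne1l was not called (log2 fold change 2.94, standard error 1.43, edgeR FDR 0.649).

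**Figure D2:**
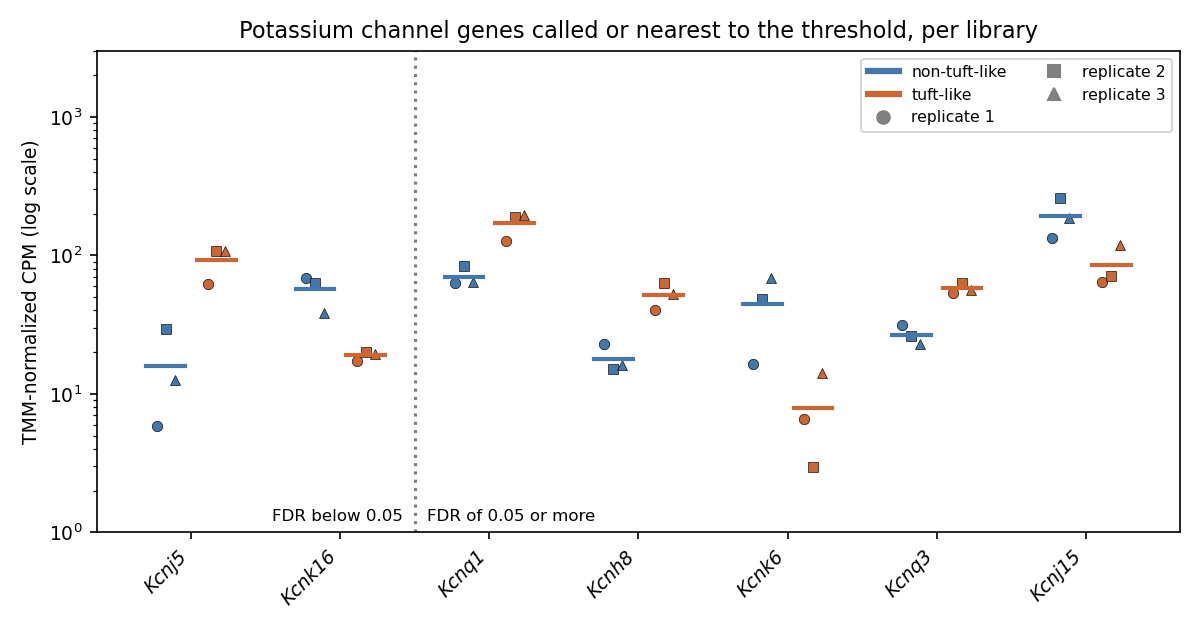
TMM-normalized CPM on a log axis for 2 called potassium channel genes and the 5 with the next smallest FDR, ordered by p-value from the left, with 1 point per library and bars at the mean of 3 libraries. In these genes the tuft-like and non-tuft-like libraries do not overlap, and Kcnj5 spans 5.90 to 29.1 CPM within the non-tuft-like libraries.

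Inward rectifiers pass potassium more readily into than out of the cell and hold the membrane near the potassium equilibrium. Of 15 such genes, all tested, edgeR called 1 higher and 0 lower in tuft-like mTEC (6.67%, against 2.11% of all tested genes). At an unadjusted edgeR p under 0.05, 2 were higher and 1 lower (20%, against 8.97% of all tested genes). Of the 15, DESeq2 called 1 higher (Kcnj5) and 1 lower (Kcnj15), while it called 5.86% of all genes. Kcnj5 (chromosome 9, 32314707 to 32344350), a G protein-gated inward rectifier best known from the heart and the adrenal cortex, had 5.90, 29.1 and 12.6 CPM in non-tuft-like and 61.9, 107 and 108 CPM in tuft-like libraries. The lowest tuft-like library was above the highest non-tuft-like library, and tuft-like replicates 2 and 3 were nearly equal. The means were 92.4 ± 26.4 and 15.9 ± 11.96 CPM (SD, n = 3), and the gene was called (log2 fold change 2.54, standard error 0.53, edgeR FDR 0.0389). It exceeded the olfactory receptor background in all 3 tuft-like libraries and in 1 non-tuft-like library, replicate 2. Its call did not hold when replicate 1 or 3 of the non-tuft-like mTEC, or replicate 2 or 3 of the tuft-like mTEC, was omitted (edgeR FDR up to 0.12), with a log2 fold change between 2.11 and 3.32.

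The related G protein-gated subunits, chosen after their values were seen, were not called. Kcnj3, with which Kcnj5 forms the cardiac channel, had 28.4, 17.7 and 13.9 CPM in non-tuft-like and 11.8, 8.86 and 5.08 CPM in tuft-like libraries, without overlap and in the opposite direction, and was not called (log2 fold change -1.22, standard error 0.55, edgeR FDR 0.561). Of its 5215 exonic bp, 1621 bp overlap a gene on the other strand. Kcnj6 had overlapping libraries between 0.276 and 14.4 CPM, and Kcnj9 stayed at or below 2.98 CPM.

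The other abundant inward rectifiers differed less. Kcnj2, which stabilises the resting potential in many excitable cells, had 48.3, 60.5 and 47.8 CPM in non-tuft-like and 83.4, 99.4 and 84.3 CPM in tuft-like libraries, without overlap but not called (log2 fold change 0.77, standard error 0.26, edgeR FDR 0.276). Kcnj15 went the other way, with 134, 258 and 185 CPM in non-tuft-like and 64.6, 70.8 and 118 CPM in tuft-like libraries, and was not called either (log2 fold change -1.19, standard error 0.35, edgeR FDR 0.16). Kcnj13, a channel of the retinal pigment epithelium, overlapped between the populations (edgeR FDR 0.691), and 623 of its 1270 exonic bp lie within Gigyf2 on the other strand.

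K2P channels carry the background leak of potassium. Of 14 genes 13 were tested, and edgeR called 1 lower and 0 higher (7.69%, against 2.11% of all tested genes). At an unadjusted edgeR p under 0.05 there were 2 lower and 0 higher (15.4%, against 8.97% of all tested genes). Of the 13, DESeq2 called 2 lower (Kcnk16 and Kcnk6) and 0 higher, while it called 5.86% of all genes. Kcnk16 (chromosome 14, 20261376 to 20269199) had 68.6, 63.5 and 38.2 CPM in non-tuft-like and 17.2, 20.1 and 19.5 CPM in tuft-like libraries. Tuft-like libraries lay close together, and all were below the lowest non-tuft-like library. Its mean of 18.9 ± 1.55 CPM was 33.4% of that in non-tuft-like mTEC, which was 56.8 ± 16.3 CPM (SD, n = 3 libraries each), and the gene was called (log2 fold change -1.58, standard error 0.34, edgeR FDR 0.0435). Its level exceeded the olfactory receptor background in all 6 libraries. The call did not hold with limma voom, nor in edgeR with the replicate number as a block (edgeR FDR 0.0774). It was also lost when replicate 1 or 2 of the non-tuft-like mTEC or any of the 3 tuft-like libraries was omitted (edgeR FDR up to 0.247). With 1 library omitted the log2 fold change lay between -1.83 and -1.45.

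Since Kcnk16 is known from islet cells, the neuroendocrine markers were set beside it. Their summed level was 1294 to 2397 CPM in tuft-like and 2527 to 4637 CPM in non-tuft-like libraries, and none of the 9 was at 0 in all libraries. All 9 had a log2 fold change below 0, and 4 were lower without overlap (44.4%, against 8.85% of all tested genes). By edgeR 0 of the 9 were called, and 2 had an unadjusted p under 0.05 (22.2%, against 8.97% of all tested genes). DESeq2 and limma voom each called 2 lower (Chga and Scg2), while these tools called 5.86% and 2.78% of all genes. Mature mTEC markers, such as Aire, summed to 2256 to 4985 CPM in tuft-like and 14238 to 17866 CPM in non-tuft-like libraries. Of these 8 markers 6 were called lower (75%), against 0.951% of all tested genes. Keratinocyte markers summed to 153 to 1335 CPM in tuft-like and 3197 to 5170.3 CPM in non-tuft-like libraries. Of these 8 markers 4 were called lower (50%), against 0.951% of all tested genes. Other marker lists were looked at as well, and not all were lower. Of 6 ionocyte markers 1 was called higher (16.7%, against 1.16% of all tested genes) and 0 lower. Of 5 erythroid markers 0 were called, although 5 were lower without overlap (100%, against 8.85% of all tested genes). The paper holds it likely that the non-tuft-like cells are mixed mTEC subpopulations. The part of any of these cell types in the lower level of Kcnk16 was not tested. In bulk samples fewer cells of a type and less RNA per cell cannot be told apart.

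Kcnk6, a weakly inward-rectifying K2P channel, had 16.4, 48.5 and 68.3 CPM in non-tuft-like and 6.53, 2.98 and 14.1 CPM in tuft-like libraries. Its libraries did not overlap but varied widely within each population, and it was not called (log2 fold change -2.49, standard error 0.66, edgeR FDR 0.107). It was called lower by DESeq2, without a filter on low counts and without non-tuft-like replicate 1. In tuft-like mTEC it exceeded the olfactory receptor background only in replicate 3. Summed over the 14 genes, the K2P family had 151, 150.3 and 157 CPM in non-tuft-like and 97.8, 91.5 and 91.9 CPM in tuft-like libraries, so all tuft-like sums were below the non-tuft-like sums. The single genes did not share this direction, since 8 of the 13 tested had a log2 fold change above 0 and the median was 0.43.

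EAG-type channels include the channels that repolarise the heart. Their member Kcnh6 had the highest mean level per exon length of the potassium channel genes in both populations. In tuft-like mTEC its lead over Kcnq1 was less than the sum of their SDs. Of the 8 EAG-type genes 0 were called by edgeR, with 4 at an unadjusted p under 0.05 (50%, against 8.97% of all tested genes). Of the 8, DESeq2 called Kcnh7 and Kcnh8 higher and Kcnh6 lower, while it called 5.86% of all genes. Kcnh6 stood at 389.9, 331 and 249 CPM in non-tuft-like and 139.6, 157 and 233 CPM in tuft-like libraries. The populations did not overlap, although tuft-like replicate 3 came close to non-tuft-like replicate 3 (log2 fold change -0.87, standard error 0.31, edgeR FDR 0.319). Kcnh8 had 22.8, 15.1 and 16.1 CPM in non-tuft-like and 40.1, 63.4 and 52.4 CPM in tuft-like libraries, above background in all 6 libraries, and lay just outside the threshold (log2 fold change 1.53, standard error 0.35, edgeR FDR 0.056). Kcnh8 was called in 8 of 15 alternative settings but in none of the 6 omissions of a library. Kcnh2, the main repolarising channel of this kind in the heart, did not separate the populations, with 20.98, 44.8 and 25.6 CPM in non-tuft-like and 30.8, 32.2 and 38.7 CPM in tuft-like libraries. The libraries of 4 of the 8 genes did not overlap, against 16.0% of all tested genes. Their log2 fold changes were 1.05 for Kcnh7, 1.53 for Kcnh8, -1.27 for Kcnh3 and -0.87 for Kcnh6 (Kcnh3 and Kcnh7 singled out after their values were seen).

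Shaker-type channels (Kcna, Kcnb, Kcnc and Kcnd), the delayed rectifiers and A-type channels of neurons, were low in both populations. None of the 17 genes exceeded the olfactory receptor background in all 3 libraries of a population. Of the 16 tested edgeR called 0, with 1 at an unadjusted p under 0.05 (6.25%, against 8.97% of all tested genes). DESeq2 called 1 of the 16 (Kcna2), while it called 5.86% of all genes. Kcna2 had 30.6, 37.5 and 22.9 CPM in non-tuft-like and 14.8, 6.61 and 10.8 CPM in tuft-like libraries (log2 fold change -1.50, standard error 0.46, edgeR FDR 0.196). The modifier subunits, which form no channel alone but alter Shaker-type channels, had 8 tested genes of 10 and 0 calls by edgeR. At an unadjusted edgeR p under 0.05 there was 1 gene (12.5%, against 8.97% of all tested genes), Kcns3. DESeq2 called this 1 gene of the 8, while it called 5.86% of all genes. Kcns3 had 4.26, 0.341 and 1.81 CPM in non-tuft-like and 7.52, 20.7 and 28.2 CPM in tuft-like libraries, a wide spread in both (log2 fold change 3.14, standard error 0.95, edgeR FDR 0.183).

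Calcium- or sodium-activated channels had 0 calls among 8 tested genes with edgeR and with DESeq2. Only Kcnn4 had an unadjusted edgeR p under 0.05 (12.5% of the 8, against 8.97% of all tested genes). Kcnn4, which opens when calcium rises and acts in epithelial secretion and in lymphocytes, had 13.7, 10.6 and 8.30 CPM in non-tuft-like and 15.5, 29.5 and 32.2 CPM in tuft-like libraries, without overlap (log2 fold change 1.25, standard error 0.48, edgeR FDR 0.381). Of 16 auxiliary subunits 15 were tested and 0 called by edgeR, with 2 at an unadjusted p under 0.05 (13.3%, against 8.97% of all tested genes). DESeq2 called 1 of the 15 (Kcnab2), while it called 5.86% of all genes. Kcnip3, a calcium-binding partner of Shaker-type channels that also acts as a transcriptional repressor, was the most abundant of them per exon length and had 118, 131 and 115 CPM in non-tuft-like and 51.4, 67.1 and 115 CPM in tuft-like libraries. Tuft-like replicate 3 lay within the non-tuft-like range, and the gene was not called (log2 fold change -0.64, standard error 0.33, edgeR FDR 0.713). Kcnrg, a soluble regulator of Shaker-type channels that is itself no channel, was under background in tuft-like replicates 2 and 3 and overlapped between the populations (edgeR FDR 1).

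Per exon length, the order of the most abundant genes differed between the populations. In tuft-like mTEC the highest levels were those of Kcnh6 (49.7 ± 14.1 CPM per kb, SD, n = 3), Kcnq1 (41.5 ± 9.22), Kcnj13 (31.6 ± 6.83), Kcnip3 (21.96 ± 9.34) and Kcnj5 (19.7 ± 5.64). Each of these levels differed from its neighbour in the order by less than the sum of their SDs. In non-tuft-like mTEC the order was Kcnh6 (91.1 ± 19.9 CPM per kb), Kcnip3 (34.2 ± 2.48), Kcnj15 (30.5 ± 9.88), Kcnk16 (23.9 ± 6.84), Kcnj13 (18.02 ± 8.34) and Kcnq1 (17.1 ± 2.76). Kcnh6 stood apart there, while each of the next genes differed from its neighbour by less than the sum of their SDs. Kcnj5 ranked 17th of 94 in non-tuft-like and 5th in tuft-like mTEC, whereas Kcnk16 went from the 4th to the 10th place. The place of Kcnj13 in both orders is uncertain, since 623 of its 1270 exonic bp overlap Gigyf2 and the strand setting is not named.

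**Figure D3:**
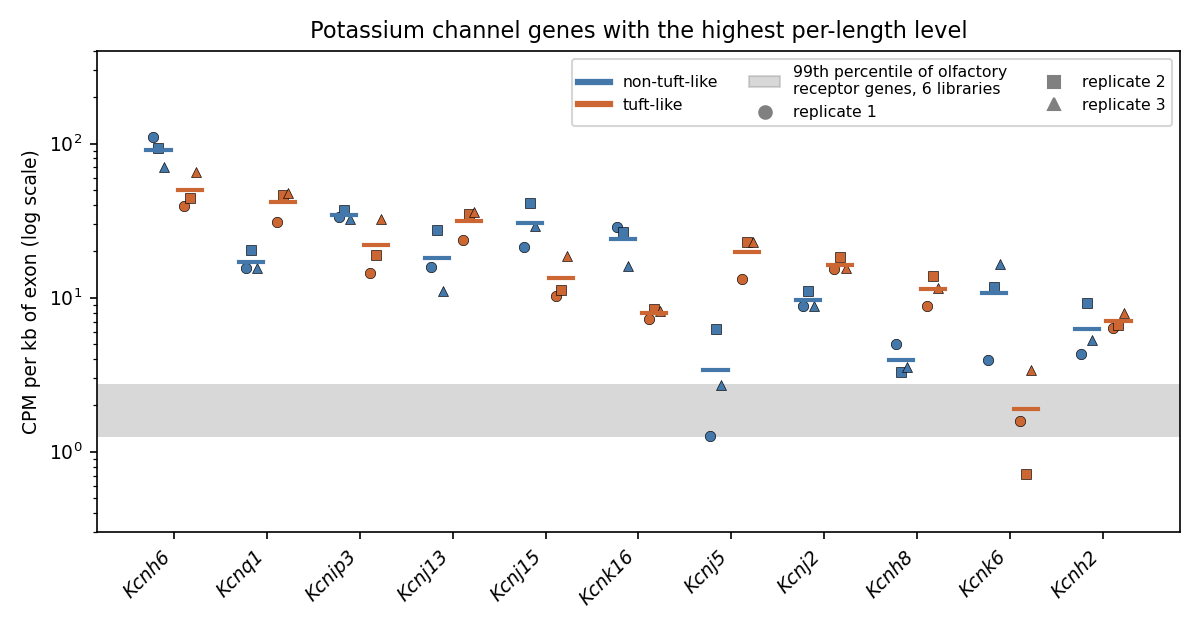
CPM per kb of exon on a log axis for 11 of the potassium channel genes with the highest mean levels in either population, ordered from the left by that level, with 1 point per library and bars at the mean. Kcnj5 lies above the grey band (olfactory receptor background, 1.24 to 2.75 CPM per kb over the 6 libraries) in all tuft-like libraries but reaches into it in non-tuft-like libraries.

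The promoters of Kcnj5 and Kcnk16 were read from RefSeq windows of 300 bases on GRCm38.p6, 250 before and 50 after the start, which were at hand for 69 of the 94 genes (94 windows). They are shown because these members were called in opposite directions.
Kcnj5 (chromosome 9, 32344295 to 32344594, minus strand): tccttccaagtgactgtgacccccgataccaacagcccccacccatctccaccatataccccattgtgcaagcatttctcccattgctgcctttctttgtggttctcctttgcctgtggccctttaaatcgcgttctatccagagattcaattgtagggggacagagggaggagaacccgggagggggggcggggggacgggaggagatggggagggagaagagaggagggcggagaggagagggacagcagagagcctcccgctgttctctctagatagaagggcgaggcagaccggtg
Kcnk16 (chromosome 14, 20269220 to 20269519, minus strand): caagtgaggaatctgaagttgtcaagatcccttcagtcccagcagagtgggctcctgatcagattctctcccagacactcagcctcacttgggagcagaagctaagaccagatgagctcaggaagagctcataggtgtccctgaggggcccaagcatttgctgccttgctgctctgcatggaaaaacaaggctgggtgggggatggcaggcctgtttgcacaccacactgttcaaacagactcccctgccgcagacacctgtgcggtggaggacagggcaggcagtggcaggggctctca
The Kcnk16 window lies wholly upstream of the gene as counted, which ends at 20269199, so its start is not that of the counted gene. The Kcnj5 window held 10 CpG and the Kcnk16 window 2. Neither held the octamer ATGCAAAT, which POU factors such as Pou2f3 can bind, on either strand. The octamer was present in 1 of the 94 windows (1.06%, Kcnab2) and in 1.74% of all 32851 windows, so these letters were rare in both. TATAAA was found on either strand in 5.32% of the potassium channel windows and in 13.6% of all windows, and in neither of the windows shown.

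Genes that build the potassium gradient were compared next, from a list of 23 pumps, pump regulators and cotransporters. Of these 22 were tested and 2 called (9.09%, against 2.11% of all tested genes), both higher in tuft-like mTEC. An unadjusted edgeR p under 0.05 was given to 5 (22.7%, against 8.97% of all tested genes). Fxyd6, a small membrane protein that regulates the sodium-potassium pump, had 134, 119.6 and 114 CPM in non-tuft-like and 532, 772 and 858 CPM in tuft-like libraries (log2 fold change 2.55, standard error 0.32, edgeR FDR 0.00211). The populations were far apart. Atp12a, a proton-potassium pump, had 41.7, 99.8 and 93.3 CPM in non-tuft-like and 13.7, 2.54 and 23.9 CPM in tuft-like libraries without a call (edgeR FDR 0.109), although DESeq2 and limma voom called it lower. Of 16 partners of potassium channels with other symbols, 0 were called by edgeR, and 4 had an unadjusted p under 0.05 (25%, against 8.97% of all tested genes). DESeq2 and limma voom each called 1 of the 16 higher (Calm2) and 1 lower (Dpp6), while they called 5.86% and 2.78% of all genes. Of these 4 partners, Calm2 and Lrrc26 were higher, with log2 fold changes of 1.01 and 2.08 (edgeR FDR 0.372 and 0.466). Dpp6 and Dpp10, partners of the A-type channels, were lower, with -1.95 and -1.55 (edgeR FDR 0.201 and 0.454). Dpp10 exceeded the olfactory receptor background in no library, and Dpp6 in no tuft-like library.

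Of 11 genes of taste cell excitability 7 were called (63.6%, against 2.11% of all tested genes), all higher in tuft-like mTEC. The list was chosen with these results known, and it shares Trpm5 with the tuft cell markers. Trpm5, the depolarising channel of the cascade, had 120.0, 118 and 75.7 CPM in non-tuft-like and 1672, 2217 and 2340.3 CPM in tuft-like libraries (log2 fold change 4.31, standard error 0.40, edgeR FDR 0.000555). Upstream of it, Gnat3 rose by 4.06, Gng13 by 4.15, Plcb2 by 3.67 and the receptor Tas1r3 by 3.11 on the log2 scale (edgeR FDR up to 0.0031). Scn2a, a voltage-gated sodium channel, rose by 1.88 (edgeR FDR 0.0194). Calhm3, a subunit of the channel that releases ATP from taste cells, rose by 3.83 (edgeR FDR 0.00172). Not called were Calhm1, Itpr3, Scn3a and Scn9a. Calhm1 rose by 4.22 without overlap between the populations (edgeR FDR 0.0676), and DESeq2 called it higher. The populations overlapped for Itpr3 (0.51 on the log2 scale) and for the sodium channels Scn3a (-0.25) and Scn9a (-0.60). Relative to tuft-like mTEC, the mean in non-tuft-like mTEC was 17.2% for Kcnj5 and 5.04% for Trpm5.

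**Figure D4:**
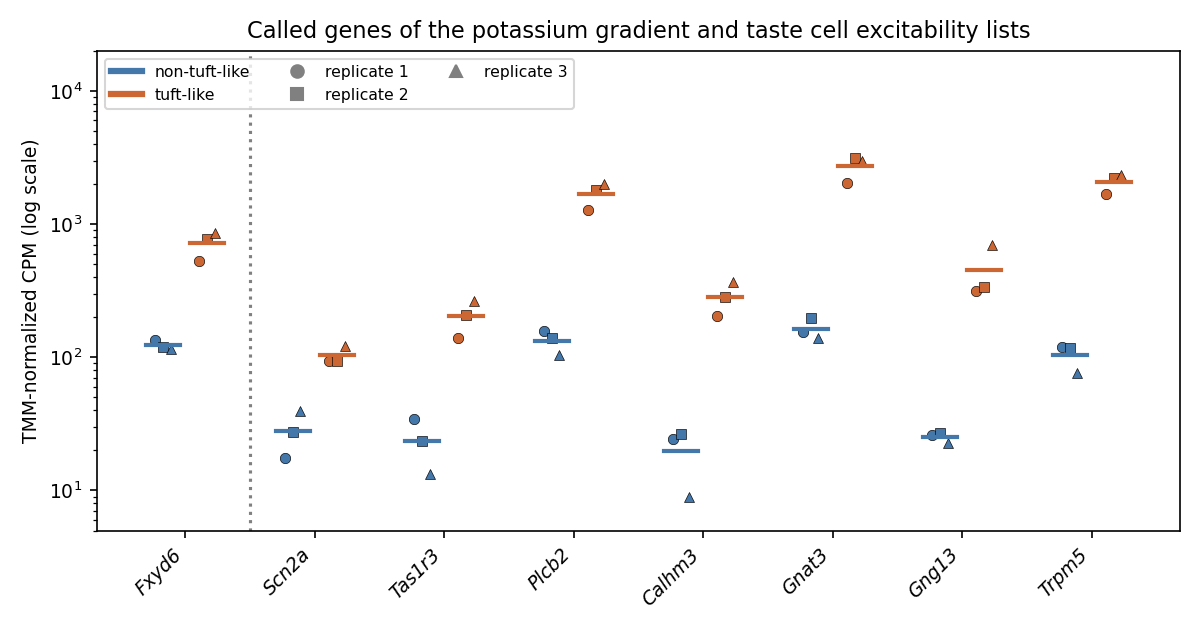
TMM-normalized CPM on a log axis for Fxyd6 of the potassium gradient list (left of the dotted line) and the called genes of the taste cell excitability list (right of it), with 1 point per library and bars at the mean of 3 libraries. All 8 genes are higher in every tuft-like library than in any non-tuft-like library, with Fxyd6 at 532 to 858 CPM against 114 to 134 CPM.

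For every potassium channel gene with non-overlapping libraries, an exact two-sided permutation test of 3 against 3 libraries gave p 0.10, the smallest this design allows. The calls rest on edgeR's model of all genes, in which the common biological coefficient of variation was 1.10.

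**Figure D5:**
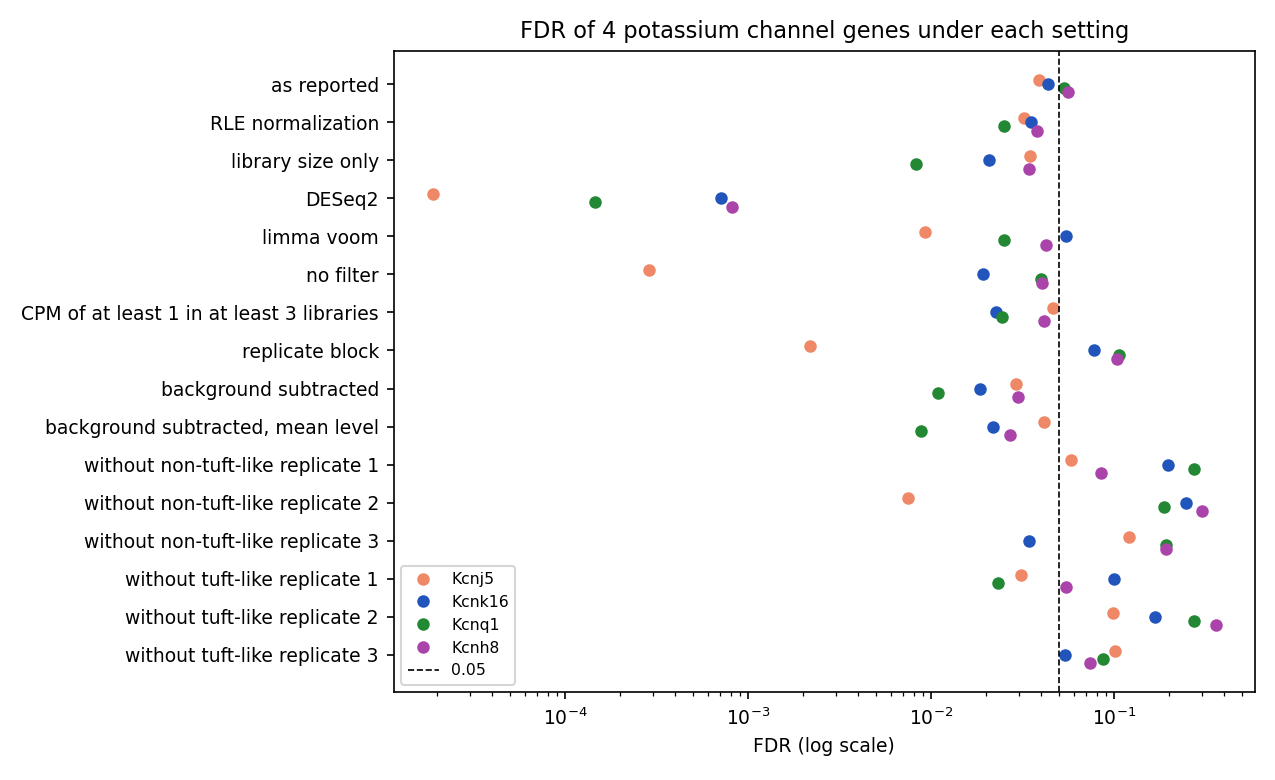
FDR on a log axis for Kcnj5, Kcnk16, Kcnq1 and Kcnh8 (colours) in the reported fit and under 15 alternative settings (rows), with the threshold of 0.05 dashed. Without tuft-like replicate 2 or 3 all 4 genes lie above the threshold.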

How the data were processed

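Bulk RNAseq (ultra-low input) was done on 3 libraries each of sorted tuft-like and non-tuft-like mTEC. The authors used Trimmomatic 0.36 for trimming, STAR 2.7.3a for alignment (mm10) and HTSeq for counting. The deposited values are raw read counts per gene. The annotation release and the strand setting are not given in the sources used here. Rows of 92 ERCC controls and 5 rows of reads assigned to no single gene were left out of library sizes and tests.

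Groups were taken from the sample titles. Identifiers were matched to GENCODE M21, and 147 gene rows (0.0164% of counts) had no match. In R 4.3.3, the filterByExpr function of edgeR 4.0.16 (at least 10 counts, at least 15 in total) chose the genes, which after TMM normalization entered a quasi-likelihood F-test without covariates, with Benjamini-Hochberg adjustment over all 32496 genes. Approximate standard errors were obtained from the log2 fold change and the F statistic (its size over the root of F). The fits were tested on simulated data, in which the share of false calls was above the nominal FDR, so calls close to the threshold are less certain than their FDR states. CPM per kb used the union of exons. A count of 0 allows up to 3 counts, or 0.0639 to 0.124 CPM, for counting error only.

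Named were all called members, the 5 uncalled members with the smallest FDR, the 12 with the highest level per length, 1 per remaining family, and the called genes of the partner, gradient and excitability lists. Some items that this rule names are not reported here, in the text or the figures, although counts and tests include them. Members and lists were chosen with earlier results of these data known. Alternatives were RLE factors, library size only, DESeq2 1.42.0, limma 3.58.1 voom, no filter, a filter at 1 CPM in 3 libraries, a replicate block, subtraction of background counts and each library left out. Subtraction at the mean background level was added after the data were seen.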

Additional observations from a re-analysis of the deposited data

How the results depend on the processing

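No call among the potassium channel genes held under all settings, and no potassium channel gene was called without tuft-like replicate 2 or without tuft-like replicate 3. The reported 2 higher and 1 lower became 4 and 1 with RLE factors, 4 and 3 with library size only, 8 and 5 with DESeq2, 4 and 0 with limma voom, 5 and 2 without a filter, 4 and 1 with the filter at 1 CPM, and 4 and 3 after subtraction of background at the median or the mean level, the latter chosen after seeing the data. When each library was left out in turn, 0 to 3 were called higher and 0 to 1 lower. Over all tested genes, 378 were called higher and 309 lower. DESeq2 gave 974 and 930, and the lower calls were 526 with library size only, 577 without a filter, 533 after subtraction at the median and 505 at the mean level. Leaving out a library gave 220 to 467 higher and 154 to 612 lower. The log2 fold change of Kcnh2 reversed to -0.079 without non-tuft-like replicate 1 and ranged up to 0.54. No other potassium channel gene chosen by the naming rule changed direction in the 15 settings, and genes looked up after their values were seen were not followed across them. The cause of these changes was not tested.

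Libraries that share a replicate number did not deviate together (correlations -0.156, -0.061 and -0.326). Taken around the means of only 3 libraries per population, these values cannot tell whether the number pairs the libraries. With a replicate block 2 potassium channel genes were called higher, Kcnj5 among them, and 1 lower, Kcnk6 in place of Kcnk16, and 737 genes were called in all, against 687. DESeq2 gave no adjusted p for 27 potassium channel genes and for 13917 genes in all. Low counts limit the comparison, since 50 of the 94 genes exceeded the olfactory receptor background in no library.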
